A study of Homo sapiens with 6 samples.

Results

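Transcript levels of 43 genes that copy DNA or supply its building blocks were compared between HCT116 cells labelled siMTA1 and control cells of the same line. The genes were taken by symbol from a list ordered by step: licensing, helicase activation, polymerases and primase, clamp and clamp loader, strand protection and joining, nucleotide supply, and S phase entry. All 43 were found among the 36651 genes of the deposited table. All 43 also passed the filter for testing, an average of 1 FPKM or more across the 6 libraries, as did 12141 genes in all. FPKM is the number of sequenced fragments scaled to the length of the gene and the size of the library. The gene lengths behind these values are not stated, so levels of different genes can be set side by side only roughly.

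HCT116 is a colorectal carcinoma line, and MTA1 belongs to NuRD, which combines nucleosome remodelling with histone deacetylation. Polyadenylated RNA was sequenced from 3 siMTA1 and 3 control libraries. The treated samples are called siMTA in one label and CrMTA1 in another, the controls both Ctrl and WT, and neither the way MTA1 was lowered nor the kind of control is settled by these names. The labels used here name no separate cultures for the replicates, so the p-values reflect only how these 6 samples vary, which may be technical. The MTA1 transcript was at 65.90, 67.61 and 66.74 FPKM in the controls against 44.55, 43.98 and 47.97 FPKM with siMTA1 (libraries 1, 2 and 3 in this order, here and below). Every siMTA1 library was below every control, at 68.2% of the control mean (log2 difference −0.54, SE 0.06, limma adjusted p = 0.000376; exact two-sided permutation p = 0.1, the smallest that 3 against 3 allow).

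Steps between low FPKM values implied 42900000 to 65400000 fragments per control library and 57200000 to 66700000 per siMTA1 library, which put 272 to 16582 fragments behind each of the 43 genes in a library. Mitochondrial transcripts took 19.9 to 22.2% of the summed FPKM in the controls and 19.9 to 21.2% with siMTA1. Of 8 markers of colon epithelium, 7 were at 1 FPKM or more in every library, while VIL1, the villin gene of the brush border, reached at most 0.04 FPKM. The 8 summed to 6559 to 6874 FPKM in the controls and 5661 to 6306 FPKM with siMTA1, a sum carried by keratins, of which KRT8 and KRT18 were called lower, while CDH1 was called higher. Of 11 markers of other cell types found in the table, ACTA2 and COL1A1 reached 1 FPKM in every library and DCN was listed at 0 in every library. The sum over the 11 was 12.5 to 13.4 FPKM in the controls and 11.1 to 11.6 FPKM with siMTA1. Within it ACTA2 was called lower, while COL1A1 lay entirely higher with siMTA1 but was not called (limma adjusted p = 0.0671). CD68 also lay entirely higher, at 0.21 to 0.34 FPKM in the controls and 0.36 to 0.42 FPKM with siMTA1, too low to be tested. Of all tested genes, 13.2% lay entirely higher and 25.9% entirely lower. The part of either marker list in the results was not tested.

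DNA is copied once per cell cycle. In G1 the origin recognition complex, CDC6 and CDT1 load the MCM ring onto DNA, in S phase CDC45 and GINS turn that ring into a moving helicase, and polymerases follow it with the sliding clamp PCNA, while ribonucleotide reductase and thymidylate synthase make deoxynucleotides. Many of these genes are transcribed at the border of G1 and S phase under E2F factors, whose promoter sites often read TTTCCCGC or TTTGGCGC, and many cell cycle promoters also carry CCAAT boxes bound by NF-Y.

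Promoter stretches are shown for members on either side of the test, because the E2F site is the best known shared feature of this group. They come from RefSeq on GRCh38.p14, from windows of 250 bases before and 50 after the first start listed for a gene, and 36 of the 43 genes were matched. Each is written 5′ to 3′ on the strand of its gene, with exact matches to TTTCCCGC, TTTGGCGC or CCAAT on either strand in capitals. For RRM1 (chr11:4094435-4094684, plus strand), POLE (chr12:132687343-132687592, minus strand) and E2F1 (chr20:33686386-33686635, minus strand) the 250 bases before the start are given, and for CDC6 (chr17:40287875-40287904, plus strand) and PCNA (chr20:5126663-5126692, minus strand) 30 bases around the match.
RRM1: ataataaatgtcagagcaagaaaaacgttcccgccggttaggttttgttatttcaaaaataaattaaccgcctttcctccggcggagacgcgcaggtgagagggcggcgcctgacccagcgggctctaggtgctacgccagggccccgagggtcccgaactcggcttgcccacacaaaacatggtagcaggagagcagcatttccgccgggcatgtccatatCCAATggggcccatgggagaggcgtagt
POLE: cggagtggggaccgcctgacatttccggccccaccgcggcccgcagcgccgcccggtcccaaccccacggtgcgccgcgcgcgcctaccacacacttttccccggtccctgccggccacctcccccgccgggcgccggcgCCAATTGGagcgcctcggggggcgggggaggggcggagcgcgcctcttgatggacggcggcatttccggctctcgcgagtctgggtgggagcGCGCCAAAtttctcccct
CDC6: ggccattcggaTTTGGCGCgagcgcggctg
E2F1: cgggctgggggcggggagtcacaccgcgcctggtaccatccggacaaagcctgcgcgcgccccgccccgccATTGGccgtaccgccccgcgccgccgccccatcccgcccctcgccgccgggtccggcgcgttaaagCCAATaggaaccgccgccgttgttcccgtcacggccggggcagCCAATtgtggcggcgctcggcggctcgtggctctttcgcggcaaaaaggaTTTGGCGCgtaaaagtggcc
PCNA: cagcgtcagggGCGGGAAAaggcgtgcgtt

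RRM1, POLE and CDC6 rose with siMTA1, while E2F1 and PCNA did not pass the test. Counted from 0 at the start, the E2F match of CDC6 spans bases 7 to 14, that of POLE bases −18 to −11, that of E2F1 bases −20 to −13 and that of PCNA bases −59 to −52. In GENCODE 29 all 8 bases of the matches of CDC6 and POLE and 7 of the 8 of E2F1 lie in an annotated exon of the gene, and 0 of the 8 of PCNA. The RRM1 window held neither E2F form and 1 CCAAT, at bases −28 to −24. In POLE, the capitals near the middle are 2 CCAAT matches on opposite strands that overlap each other. Either E2F form was found in 16 of the 36 promoters (44.4%), against 2.31% of the 27305 promoters of the RefSeq table. It was found in 2 of the 9 genes that rose and in 14 of the 27 matched genes that did not pass. Only these exact spellings were searched, so a window without them may still hold another form of the E2F site. CCAAT was found in 21 of the 36 (58.3%) and in 35.7% of all promoters, with 7 of the 9 that rose and 14 of the 27 that did not pass. TTTGAA, the CHR letters of late cell cycle genes, was found in 1 of the 36, RRM1, and in 15.4% of all promoters. No match of one of these motifs overlapped a match of another in the 36 windows. These matches are letters in a window and describe no binding in these cells.

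With siMTA1, 9 of the 43 genes rose and 0 fell (limma on log2(FPKM + 1), adjusted p under 0.05 over all 12141 genes, which is what called means below). Over all tested genes 6.13% were called higher and 12.1% lower, together 18.2%. The 9 were ORC1, CDC6, MCM10, CDC45, POLE, RFC2, RFC5, FEN1 and RRM1, with mean levels 16.4% to 37.7% above control. At an unadjusted limma p under 0.05, 16 of the 43 passed, where 35.0% of all tested genes did. The median log2 difference was 0.09 over the 43 and −0.05 over all tested genes, and 38 of the 43 differences were positive, against 38.3% of all tested genes. With upper-quartile scaling 40 of the 43 were positive, with quantile normalization 39 and with median centring 41. The median log2 difference over all tested genes was then −0.011, −0.0072 and 0.0053. The 38.3% belongs to the main scaling, and the share of positive differences over all tested genes is not given for these 3 scalings. The 2 groups of libraries did not overlap in 19 of the 43, with siMTA1 higher in 18 and lower in 1, PCNA. Over all tested genes 13.2% lay entirely higher with siMTA1 and 25.9% entirely lower. The 43 were chosen with earlier results of these data known, so their counts beside the shares over all genes are no test of the list. Genes of one pathway are not independent observations. In bulk RNA, more cells in S phase and more RNA per cell cannot be told apart.

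The count of 9 changed with single libraries left out, with 4 genes called without control library 2 and 5 without siMTA1 library 3. Over all tested genes the share called higher was then 3.20% and 4.54%, against 6.13% with all 6 libraries. CDC6, RFC5, FEN1 and RRM1 were called in each of the 18 alternative settings. With upper-quartile scaling 15 of the 43 were called higher, with quantile normalization 15 and with median centring 16, in each case with the 9 among them and 0 lower. The main scaling gave 744 genes higher and 1463 lower over the whole table, upper-quartile scaling 1000 and 939, quantile normalization 1011 and 895, and median centring 1128 and 802.

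**Figure D1:**
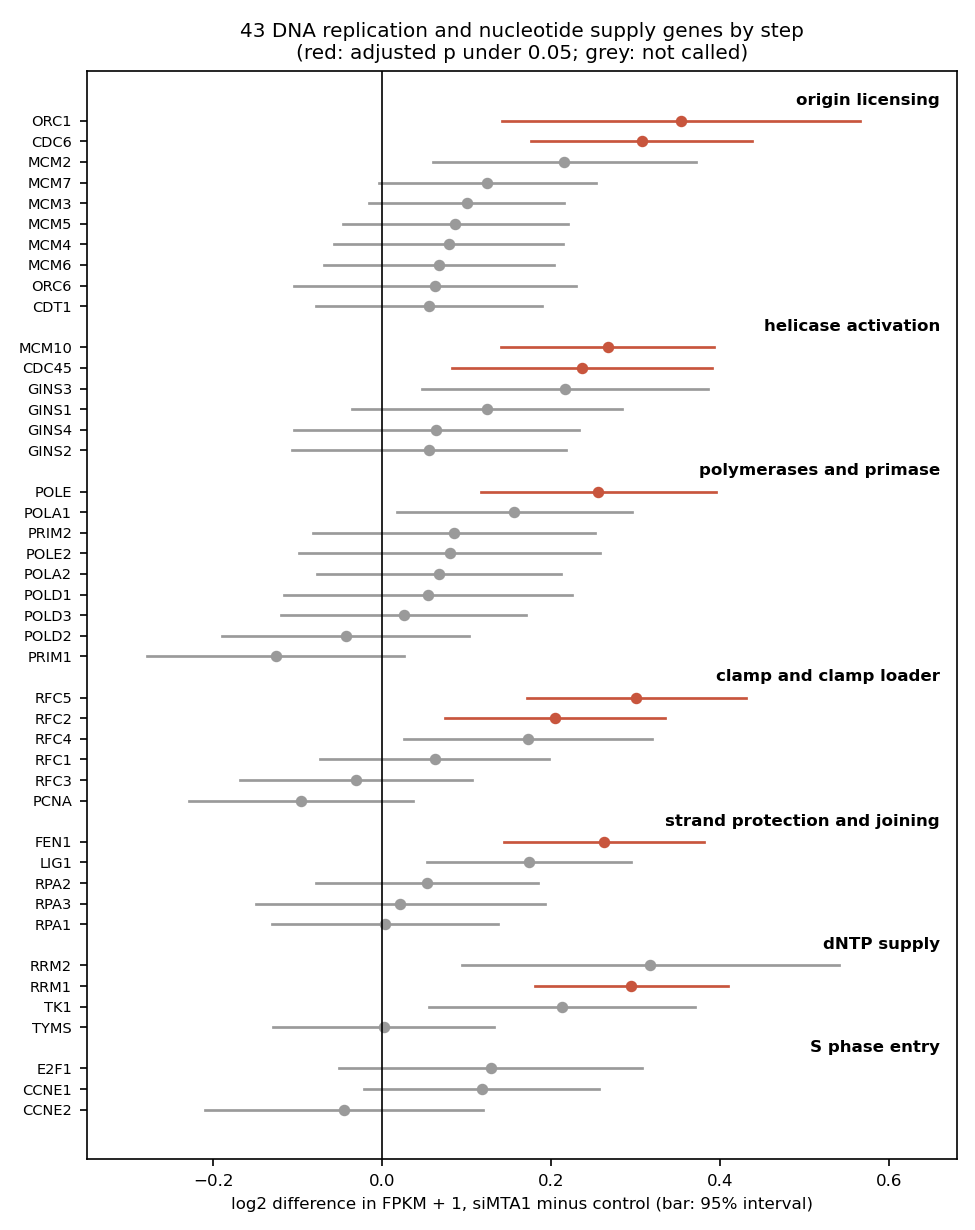
Log2 difference in FPKM + 1 (siMTA1 minus control, horizontal axis) of the 43 genes by step, with 95% intervals from limma; red genes passed at an adjusted p under 0.05. The 9 red points lie between 0.20 and 0.35, and 38 of the 43 points lie right of 0.

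Summed over the 43 genes, the level was 735.2, 723.1 and 719.3 FPKM in control libraries 1 to 3 against 778.6, 762.7 and 797.5 FPKM in siMTA1 libraries 1 to 3. Each siMTA1 sum was above each control sum. As a share of all FPKM the sums were 0.178 to 0.186% in the controls and 0.194 to 0.201% with siMTA1. Against the control mean, the median member stood at 0.11, 0.09 and 0.12 on the log2 scale in siMTA1 libraries 1 to 3, where the median tested gene stood at −0.04, −0.05 and −0.04. The median member was thus above control, and the median tested gene below it, in each of the 3 siMTA1 libraries.

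Licensing genes prepare origins before S phase. ORC1, the largest subunit of the origin recognition complex, and CDC6, the ATPase that helps it load the MCM ring, rose, and the other 8 of 10 did not pass. CDC6 (chromosome 17, 40287633 to 40304657, GENCODE 29 on GRCh38 here and below) was at 8.82, 8.43 and 8.29 FPKM in the controls against 11.29, 10.67 and 10.35 FPKM with siMTA1. All siMTA1 libraries were above all controls, for a log2 difference of 0.31 (SE 0.06, limma adjusted p = 0.00820). ORC1 (chromosome 1, 52372829 to 52404459) was at 2.42, 2.10 and 3.07 FPKM in the controls against 3.64, 3.41 and 3.40 FPKM with siMTA1. The groups did not overlap, but the controls spread widely, and the log2 difference was 0.35 (SE 0.09, limma adjusted p = 0.0307). The ORC1 call ended without control library 1 (adjusted p = 0.0683), control library 2 (0.105) or any siMTA1 library (0.0825, 0.0777 and 0.0584), and when low genes were not filtered out (0.164).

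None of the 6 subunit genes of the MCM2-7 helicase ring passed, and all 6 differences were positive. They ranged from 0.07 for MCM6 to 0.22 for MCM2. MCM2 was at 18.6 ± 0.63 and 21.8 ± 1.9 FPKM (mean ± SD of 3 controls, then of 3 siMTA1 libraries, here and below), MCM3 at 59.5 ± 1.5 and 63.8 ± 1.2 FPKM, and MCM7 at 49.8 ± 1.8 and 54.4 ± 2.4 FPKM. In these 3 genes the groups did not overlap, and MCM2 had a limma adjusted p of 0.0576. MCM2 passed in 7 of the 18 alternatives, among them that without siMTA1 library 1 (adjusted p = 0.0306). Genes on the opposite strand, TPRA1 among them, share 23.6% of the exon bases of MCM2, so its level is uncertain. MCM4 was at 32.1 ± 2.0 and 33.9 ± 0.88 FPKM, MCM5 at 17.4 ± 1.0 and 18.5 ± 0.41 FPKM and MCM6 at 26.7 ± 1.2 and 28.0 ± 1.4 FPKM. The ring holds its subunits in equal numbers, but their transcripts spanned 3.43-fold in control, from MCM5 to MCM3, and 3.46-fold with siMTA1. CDT1, the loader that geminin inhibits, was at 18.3 ± 1.0 and 19.1 ± 0.59 FPKM, and the origin subunit gene ORC6 at 9.16 ± 0.98 and 9.58 ± 0.30 FPKM. The 95% intervals of the log2 difference were −0.08 to 0.19 for CDT1 and −0.10 to 0.23 for ORC6.

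Helicase activation had the second highest median of the 7 steps, 0.17, with 2 of 6 genes higher. MCM10, which is needed to start the assembled helicase, was at 3.74, 3.78 and 3.81 FPKM in the controls against 4.83, 4.62 and 4.79 FPKM with siMTA1. The 3 controls lay close together and every siMTA1 library was above them, for a log2 difference of 0.27 (SE 0.06, limma adjusted p = 0.0129). CDC45, the cofactor that travels with the helicase, was at 9.68, 9.83 and 8.68 FPKM in the controls against 10.71, 12.07 and 10.95 FPKM with siMTA1. The groups did not overlap, and the log2 difference was 0.24 (SE 0.07, limma adjusted p = 0.0411). The MCM10 call ended without control library 2 (adjusted p = 0.0527). The CDC45 call ended without any single one of the 6 libraries (adjusted p between 0.0537 and 0.136) and with low genes kept in (0.139). MCM10 lies on chromosome 10, 13161554 to 13211104, and CDC45 on chromosome 22, 19479459 to 19520612.

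The 4 GINS genes code for a partner complex of CDC45 in the helicase, and none of them passed. GINS3 came nearest, at 3.34 ± 0.38 and 4.03 ± 0.19 FPKM (log2 difference 0.22, limma adjusted p = 0.0745), with all siMTA1 libraries above all controls. It passed in 6 of the 17 alternatives that tested it, among them that without control library 3 (adjusted p = 0.0454). GINS1 was at 4.77 ± 0.33 and 5.29 ± 0.41 FPKM, GINS2 at 3.71 ± 0.30 and 3.90 ± 0.29 FPKM and GINS4 at 1.61 ± 0.068 and 1.74 ± 0.21 FPKM. Annotated genes on the opposite strand share 23.6% of the exon bases of GINS4, so its level is uncertain.

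Among 9 polymerase and primase genes 1 was called, POLE, which was higher. It codes for the catalytic subunit of polymerase epsilon, which copies the leading strand. POLE was at 4.19, 4.08 and 4.38 FPKM in the controls against 4.93, 5.52 and 5.24 FPKM with siMTA1. The groups did not overlap, and the log2 difference was 0.26 (SE 0.06, limma adjusted p = 0.0220). This call ended without control library 2 (adjusted p = 0.0893), siMTA1 library 2 (0.0775) or siMTA1 library 3 (0.0518), and with low genes kept in (0.0786). POLE (chromosome 12, 132623753 to 132687365) has the longest summed exons of the 43, 16609 bases. Its partner subunit gene POLE2 was at 3.21 ± 0.27 and 3.45 ± 0.36 FPKM, with a 95% interval of the log2 difference from −0.10 to 0.26.

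Polymerase alpha and primase lay down the starting primers, and none of their 4 genes passed. POLA1, the catalytic subunit of the polymerase, was at 3.46 ± 0.14 and 3.97 ± 0.19 FPKM without overlap (log2 difference 0.16, limma adjusted p = 0.108). PRIM1, the catalytic subunit of primase, had the lowest difference of the 43, at 19.1 ± 1.3 and 17.4 ± 1.1 FPKM (log2 difference −0.13, 95% interval −0.28 to 0.03). POLA2 was at 1.95 ± 0.092 and 2.09 ± 0.092 FPKM and PRIM2 at 4.35 ± 0.27 and 4.68 ± 0.46 FPKM. PRIM1 and POLA2 share 21.6% and 35.1% of their exon bases with other genes, in part on the same strand, so their levels are uncertain. The FPKM of this complex spanned 9.77-fold in control, from POLA2 to PRIM1.

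Polymerase delta copies the lagging strand, and its 3 genes did not pass. POLD1, the catalytic subunit, was at 6.92 ± 0.65 and 7.21 ± 0.52 FPKM, POLD2 at 30.4 ± 2.2 and 29.4 ± 1.2 FPKM and POLD3 at 3.03 ± 0.11 and 3.10 ± 0.21 FPKM. The 95% intervals of the log2 difference were −0.12 to 0.22 for POLD1, −0.19 to 0.10 for POLD2 and −0.12 to 0.17 for POLD3.

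RFC is the 5-subunit loader that opens the PCNA ring and closes it on DNA. RFC2 and RFC5 rose, while RFC1, RFC3 and RFC4 did not pass. RFC5 (chromosome 12, 118013588 to 118033130) was at 11.51, 10.66 and 11.18 FPKM in the controls against 14.39, 13.35 and 14.02 FPKM with siMTA1. All siMTA1 libraries were above all controls, for a log2 difference of 0.30 (SE 0.06, limma adjusted p = 0.00867). RFC2 (chromosome 7, 74231499 to 74254458) was at 12.48, 13.09 and 12.08 FPKM in the controls against 14.43, 14.17 and 15.23 FPKM with siMTA1. Its groups did not overlap either, and the log2 difference was 0.20 (SE 0.06, limma adjusted p = 0.0379). The RFC2 call ended without any single one of the 6 libraries (adjusted p between 0.0691 and 0.102) and with low genes kept in (0.0904). RFC4 was at 24.8 ± 1.0 and 28.1 ± 2.0 FPKM without overlap (limma adjusted p = 0.0943), RFC1 at 19.4 ± 1.1 and 20.2 ± 0.79 FPKM and RFC3 at 4.26 ± 0.10 and 4.15 ± 0.24 FPKM. Whether the RFC genes differ from each other in response was not tested.

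PCNA, the clamp itself, had the highest FPKM of the 43 genes and was the only one with every siMTA1 library below every control. It was at 78.0 ± 4.3 and 72.9 ± 2.4 FPKM and did not pass (log2 difference −0.10, SE 0.06, 95% interval −0.23 to 0.04, limma adjusted p = 0.277). Its difference was negative under each of the 18 alternatives, with a lowest adjusted p of 0.162. PRIM1 was the other member with a negative value under all 18.

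FEN1, the nuclease that trims flaps from Okazaki fragments, rose. It was at 19.48, 19.77 and 20.11 FPKM in the controls against 23.14, 24.49 and 24.18 FPKM with siMTA1. The gap between the groups was wider than the range within either, for a log2 difference of 0.26 (SE 0.05, limma adjusted p = 0.0106). FEN1 (chromosome 11, 61792637 to 61797244) shares 8.68% of its exon bases with FADS2 on its own strand and TMEM258 on the other. LIG1, the ligase that seals the fragments, was at 13.5 ± 0.42 and 15.4 ± 0.28 FPKM without overlap and did not pass (log2 difference 0.17, limma adjusted p = 0.0510). It passed in 8 of the 18 alternatives.

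RPA coats single-stranded DNA at the fork, and its 3 genes had log2 differences of 0.00 for RPA1, 0.05 for RPA2 and 0.02 for RPA3. RPA1 was at 21.6 ± 0.46 and 21.6 ± 1.3 FPKM, RPA2 at 20.9 ± 0.69 and 21.7 ± 1.1 FPKM and RPA3 at 9.18 ± 1.0 and 9.30 ± 0.31 FPKM. Their 95% intervals were −0.13 to 0.14, −0.08 to 0.18 and −0.15 to 0.19, each of which leaves out a difference of the size measured for FEN1.

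**Figure D2:**
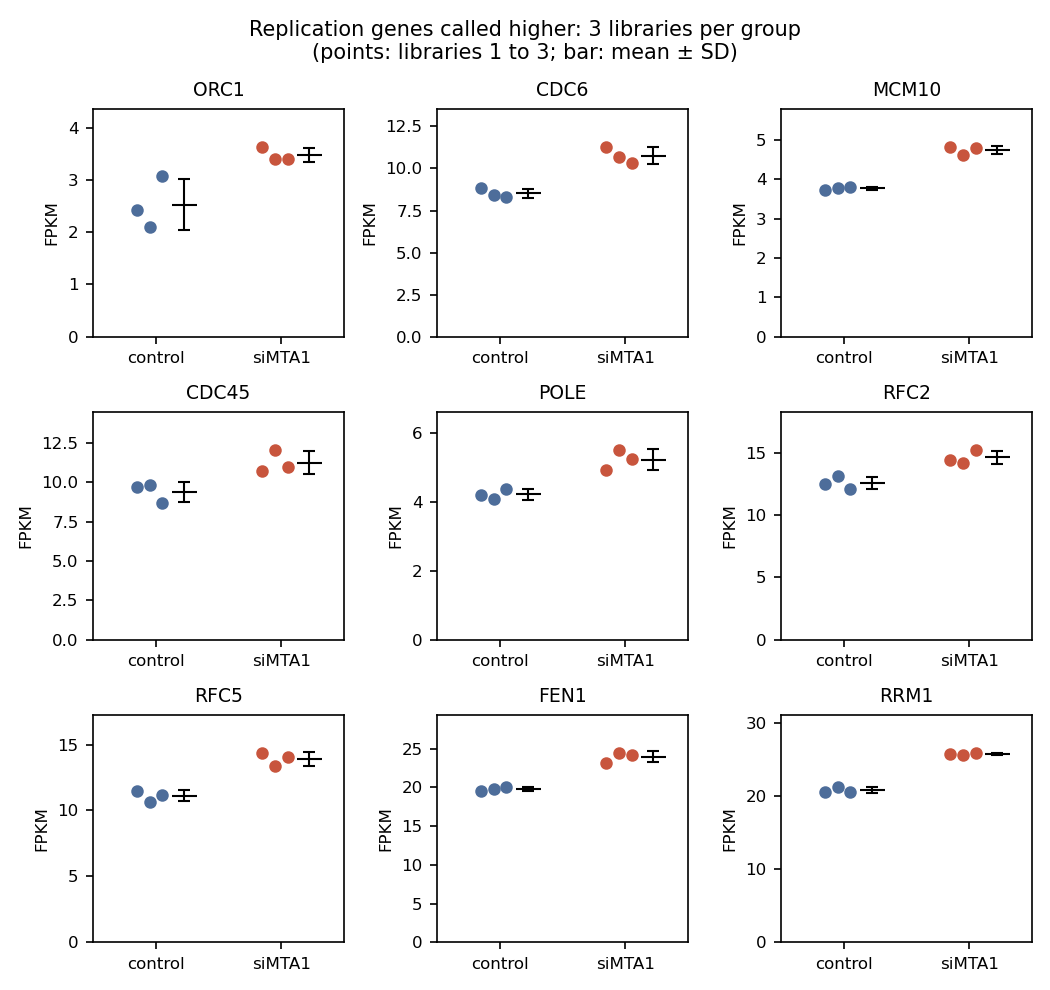
FPKM (vertical axis, from 0) of the 9 genes called higher, with control libraries in blue, siMTA1 libraries in red and the mean ± SD of 3 libraries as a bar. In each panel the 3 siMTA1 points lie above the 3 control points, and the control points of ORC1 spread from 2.10 to 3.07 FPKM.

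Nucleotide supply had the highest median of the 7 steps, 0.25, with 1 of 4 genes called. RRM1, the large catalytic subunit of ribonucleotide reductase, was at 20.65, 21.28 and 20.64 FPKM in the controls against 25.78, 25.67 and 25.98 FPKM with siMTA1. Libraries of one group lay within 1 FPKM of each other, and the log2 difference of 0.29 (SE 0.05) had the smallest adjusted p of the 43 (limma, 0.00584). RRM1 lies on chromosome 11, 4094707 to 4138876. RRM2, the small subunit made in S phase, had a wider spread, at 27.4 ± 2.7 and 34.5 ± 4.6 FPKM (log2 difference 0.32, SE 0.10, limma adjusted p = 0.0536), and its groups overlapped. It passed in 9 of the 18 alternatives, among them those without control library 1 (adjusted p = 0.0358) or siMTA1 library 2 (0.0252). Another annotated gene on the strand of RRM2 shares 20.2% of its exon bases.

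TK1, the thymidine kinase of the salvage route, was at 20.8 ± 2.1 and 24.2 ± 0.38 FPKM without overlap (log2 difference 0.21, limma adjusted p = 0.0634). It passed in 9 of the 18 alternatives, among them that without control library 3 (adjusted p = 0.0182). TYMS, which makes thymidylate, was at 49.0 ± 0.71 and 49.1 ± 2.9 FPKM. Its log2 difference of 0.00 had a 95% interval of −0.13 to 0.13. ENOSF1 and TYMSOS on the opposite strand share 46.6% of the exon bases of TYMS, so its level is uncertain if strand was not used in counting.

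Entry into S phase depends on E2F1, a transcription factor held back by the retinoblastoma protein, and on cyclin E, which activates CDK2. None of these 3 genes passed. CCNE1, which had the smallest p of the 3, was at 17.52, 17.94 and 18.18 FPKM in the controls against 19.03, 18.45 and 21.06 FPKM with siMTA1. The groups did not overlap, though siMTA1 library 2 was close to the highest control, and the log2 difference was 0.12 (SE 0.06, limma adjusted p = 0.207). E2F1 was at 7.59 ± 0.69 and 8.39 ± 0.76 FPKM (log2 difference 0.13, limma adjusted p = 0.283) and CCNE2, the lowest of the 43 in control, at 1.42 ± 0.14 and 1.34 ± 0.098 FPKM (log2 difference −0.05, limma adjusted p = 0.690). INTS8 and another gene on the opposite strand share 37.1% of the exon bases of CCNE2.

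The 9 genes that rose lie on 7 chromosomes. Their median control level was 9.40 FPKM, against 17.6 FPKM for the 34 that did not pass. Their median exon length was 3249 bases against 4213.5 bases, and the median GC content of their longest transcripts 50.7% against 48.0%. With the trend of length and GC content removed from each library, a setting chosen after seeing the data, 13 of the 43 were called higher, the 9 among them, and 0 lower. Over all tested genes 8.37% were then called higher, against 6.13% in the main setting, and 2135 genes lower, against 1463.

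A list of 70 other genes of replication, nucleotide metabolism, S phase control and chromatin assembly was set beside the 43. It too was chosen with earlier results of these data known. Of the 68 that could be tested, 14 rose and 6 fell, where 6.13% of all tested genes were called higher and 12.1% lower. Their median log2 difference was 0.04, with 40 positive and 28 negative. These counts also changed with single libraries left out. Over all tested genes 3.20% to 5.20% were then called higher, and 640 to 1199 genes lower, against 1463 with all 6 libraries. The number higher was 5 without control library 2, 7 without control library 3, and 5, 5 and 9 without siMTA1 library 1, 2 or 3. The number lower was 1 without control library 2, 1 without siMTA1 library 2 and 2 without siMTA1 library 3.

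Chromatin assembly genes, which rebuild nucleosomes behind the fork, had 4 of 8 higher and 0 lower, with a median of 0.20. CHAF1A, the large subunit of chromatin assembly factor 1, was at 17.1 ± 1.3 and 23.9 ± 0.96 FPKM (log2 difference 0.46, limma adjusted p = 0.00252). UHRF1, which recruits the maintenance DNA methyltransferase to new DNA, was at 13.6 ± 0.60 and 18.7 ± 0.73 FPKM (log2 difference 0.43, limma adjusted p = 0.00202). ASF1B and NASP, both histone chaperones, were the other 2, named after their values were seen. Of the 8 other tested genes of strand protection and joining, which include subunits of RNase H2, topoisomerases and fork factors, 3 rose and 0 fell. TIMELESS, which holds the fork together, was at 13.5 ± 0.31 and 17.0 ± 0.62 FPKM (log2 difference 0.32, limma adjusted p = 0.00625). TOP2A, a topoisomerase, was at 15.8 ± 1.4 and 20.4 ± 1.6 FPKM (log2 difference 0.35, limma adjusted p = 0.0155), and CLSPN, a checkpoint adaptor named after its value was seen, was the other. Calls of CHAF1A, UHRF1 and TIMELESS held in all 18 alternatives. That of TOP2A ended without control library 2 (adjusted p = 0.0521), siMTA1 library 1 (0.0516) or siMTA1 library 2 (0.0616), and with low genes kept in (0.0951). The ASF1B call ended without control library 1 or 2 or any siMTA1 library (adjusted p between 0.0845 and 0.14), that of NASP without control library 3 or siMTA1 library 1 or 2 (between 0.0627 and 0.0963), and that of CLSPN without any library but siMTA1 library 3 (between 0.0509 and 0.116). All 3 also ended with low genes kept in (0.185, 0.113 and 0.146).

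Of 11 other genes of helicase activation, 2 rose and 0 fell. CDC7, the kinase that fires licensed origins, was at 5.51 ± 0.39 and 6.84 ± 0.24 FPKM (log2 difference 0.27, limma adjusted p = 0.0199). TICRR, which helps bring CDC45 to origins, was at 1.02 ± 0.11 and 1.49 ± 0.15 FPKM (log2 difference 0.30, limma adjusted p = 0.0250). Both calls ended without control library 2 (adjusted p = 0.0865 and 0.0752), control library 3 (0.0516 and 0.0691) or siMTA1 library 1 (0.0605 and 0.0702), and with low genes kept in (0.0796 and 0.126). CDC7 also lost its call without siMTA1 library 2 (0.0663) and TICRR without siMTA1 library 3 (0.0690). CHTF18, of an alternative clamp loader, was at 7.45 ± 0.10 and 9.05 ± 0.30 FPKM (log2 difference 0.25, limma adjusted p = 0.0152), a call that ended without control library 2 (0.0606) or siMTA1 library 2 (0.0567). Among 6 other licensing genes 1 was called, GMNN or geminin, which blocks reloading of origins. It was higher and is named after its value was seen, and the other 5 had negative differences that did not pass. The GMNN call (limma adjusted p = 0.0438) ended without control library 2 or 3 or any siMTA1 library (adjusted p between 0.0927 and 0.135), with low genes kept in (0.182) and without the intensity trend (0.0528).

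Of 15 other regulators of S phase, 3 rose and 1 fell. FBXO5, which restrains the anaphase-promoting complex, was at 9.05 ± 0.33 and 11.8 ± 0.14 FPKM (log2 difference 0.35, limma adjusted p = 0.00358), and its call held in all 18 alternatives. CDC25A, the phosphatase that activates CDK2, was at 1.15 ± 0.025 and 1.60 ± 0.10 FPKM (log2 difference 0.27, limma adjusted p = 0.0231). E2F5, a repressive E2F, was at 2.48 ± 0.11 and 1.83 ± 0.23 FPKM (log2 difference −0.30, limma adjusted p = 0.0252). The CDC25A call ended without control library 2 or 3 or any siMTA1 library (adjusted p between 0.0506 and 0.0776) and with low genes kept in (0.101). The E2F5 call ended without control library 2 or 3 or siMTA1 library 2 or 3 (adjusted p between 0.0665 and 0.0678), with median centring (0.0537) and with low genes kept in (0.118). E2F8, named after its value was seen, was the other call and was higher, but it ended without any single one of the 6 libraries (adjusted p between 0.0686 and 0.104) and with low genes kept in (0.123).

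The other 12 genes of nucleotide supply had 5 lower and 0 higher, with a median of −0.16. RRM2B, the small reductase subunit that p53 induces, was at 34.8 ± 1.4 and 24.5 ± 2.0 FPKM (log2 difference −0.49, SE 0.07, limma adjusted p = 0.00202) and was called in all 18 alternatives. NME1, a nucleoside diphosphate kinase, was at 141 ± 4.1 and 117 ± 5.4 FPKM (log2 difference −0.27, limma adjusted p = 0.0129). The NME1 call ended without control library 2 (0.0589) or siMTA1 library 2 (0.0528) and with low genes kept in (0.0557), and a read-through gene to NME2 shares 18.6% of its exon bases. The remaining 3, named after their values were seen, were CMPK1, DTYMK and UMPS, 2 kinases and a synthase of pyrimidine nucleotides. CMPK1, DTYMK and UMPS each lost their call with TPM (adjusted p = 0.0557, 0.0590 and 0.0561), and with median centring the adjusted p was 0.0865, 0.136 and 0.0945. All 3 calls also ended without control library 2 or siMTA1 library 2 or 3 (adjusted p between 0.0812 and 0.167). Of the 18 alternatives, the call was kept in 9 for CMPK1, 7 for DTYMK and 8 for UMPS.

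RRM2 and RRM2B are alternative partners of RRM1 in ribonucleotide reductase. The ratio of RRM2 to RRM2B in FPKM was 0.830, 0.797 and 0.734 in control libraries 1 to 3 against 1.33, 1.29 and 1.61 in siMTA1 libraries 1 to 3. The FPKM of RRM2B was thus above that of RRM2 in every control library and below it in every siMTA1 library. Which transcript was the more abundant is uncertain, because the gene lengths behind the values are not stated. Another gene on the strand of RRM2 also shares 20.2% of the exon bases of RRM2. The mean ratio was 0.787 ± 0.049 in the controls and 1.41 ± 0.17 with siMTA1 (SD, n = 3 each). In the controls every RRM2 value was below every RRM2B value, and with siMTA1 every RRM2 value was above every RRM2B value. The groups thus had to separate in the ratio of RRM2 to RRM2B, and no p-value is given. RRM2B was itself called lower, while RRM2 was not called and its groups overlapped. The ratio of RRM1 to RRM2B was 0.60 ± 0.030 in the controls and 1.06 ± 0.081 with siMTA1 (SD, n = 3 each). Every siMTA1 library was above every control for RRM1 and below every control for RRM2B. The groups therefore had to separate in this ratio, and no p-value is given for it. A further ratio, of CDT1 to its inhibitor GMNN, was 0.541 ± 0.094 in the controls and 0.459 ± 0.0098 with siMTA1 (SD, n = 3 each, exact two-sided permutation p = 0.4). These were the 3 ratios computed, and all were chosen after the values were seen.

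**Figure D3:**
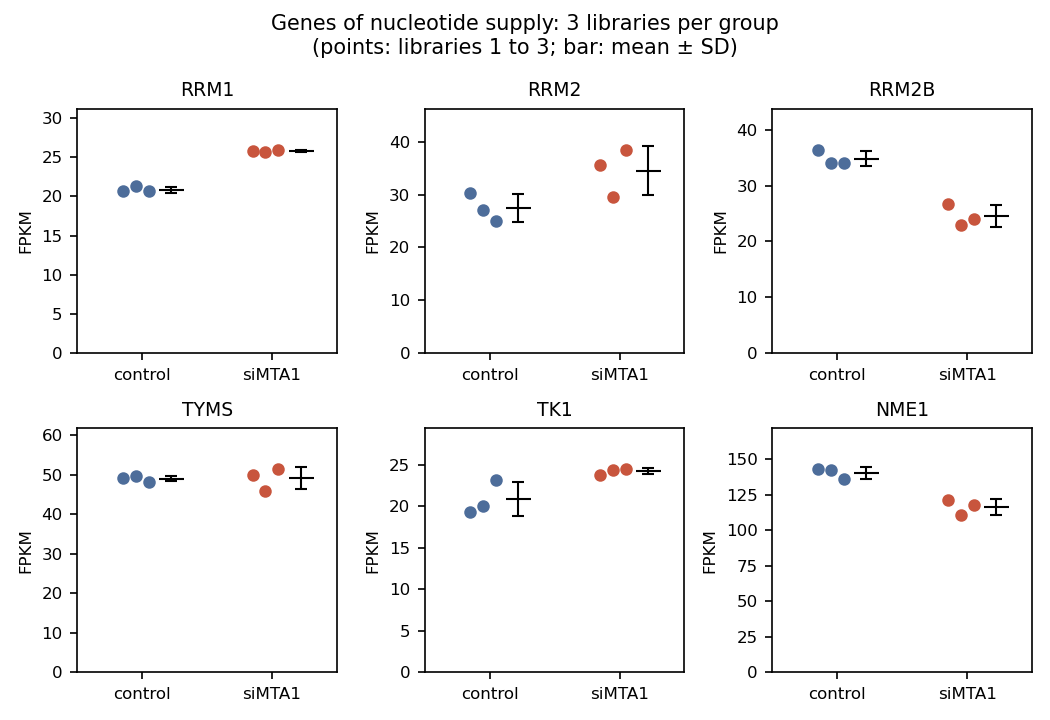
FPKM (vertical axis, from 0) of 6 genes of nucleotide supply, with control libraries in blue, siMTA1 libraries in red and the mean ± SD of 3 libraries as a bar. RRM1 lies higher with siMTA1, RRM2B and NME1 lie lower, the RRM2 points of the groups overlap, and TYMS lies at 49.0 and 49.1 FPKM on average.

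**Figure D4:**
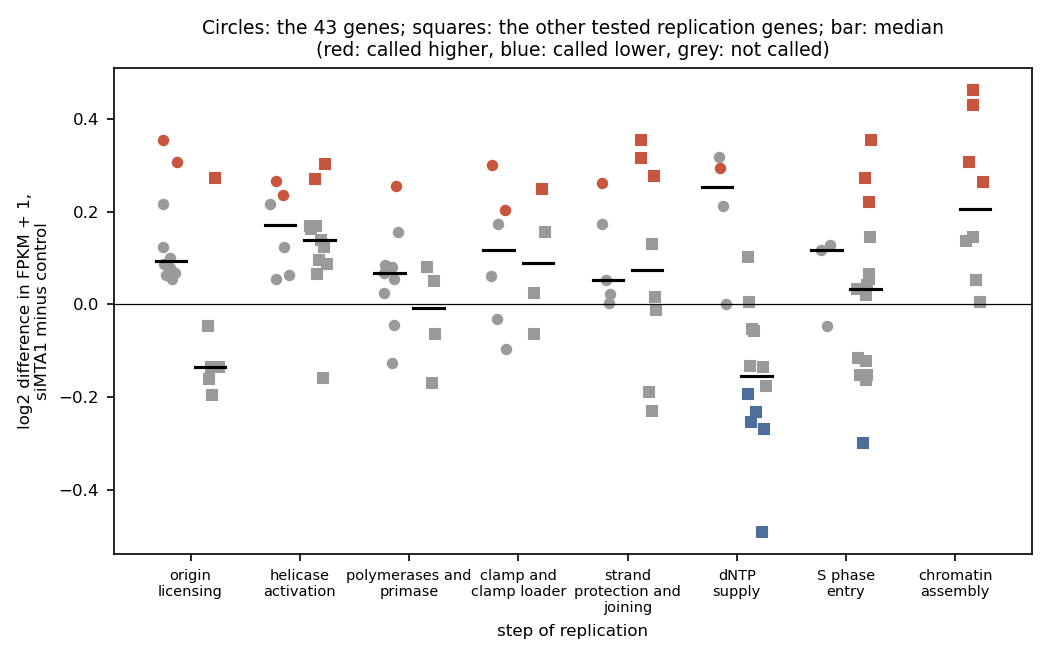
Log2 difference in FPKM + 1 (siMTA1 minus control, vertical axis) by step of replication, with circles for the 43 genes, squares for the other tested replication genes and a bar at each median; red was called higher and blue lower. In nucleotide supply the 4 circles have a median of 0.25 and the 12 squares one of −0.16.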

How the data were processed

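Polyadenylated RNA of 3 control and 3 siMTA1 samples was sequenced as directional paired-end libraries, per the labels' protocols. The authors deposited 1 table of FPKM for 36651 genes. The submitters' processing notes name cutadapt, TopHat2, edgeR and GRCh38; counting, use of strand, annotation and gene lengths are not stated. Genes averaging 1 FPKM or more (12141) were fitted with limma 3.58.1 (R 4.3.3) on log2(FPKM + 1) with an intensity trend, two-sided and without covariates, and Benjamini-Hochberg adjustment ran over all of them. Adding 1 understates changes of low genes. Depth was read from genes under 150 bases (GENCODE 29 lengths) by matching their lowest values to 1 fragment; 94.2% to 97.1% of low values were then whole within 0.05 beyond rounding. The fit was tested on simulated data.

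The members and lists were chosen with earlier results of these data known. By rule, called members, and the smallest p of a step without one, are given per library, other members by group means, and of the other replication genes the 12 called with the smallest p. Alternatives were pseudocounts of 0.1 and 0.5, other filters, scalings and variance settings, a replicate block, each library left out and, added after seeing the data, removal of length and GC trends.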

Additional observations from a re-analysis of the deposited data

How the results depend on the processing

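No member was called lower in the main setting or in any of the 18 alternatives. Members called higher, 9 in the main setting, numbered 5 with no filter on low values, 15 with upper-quartile scaling, 15 with quantile normalization, 16 with median centring, 17 with array weights, and 4 to 9 with 1 library left out. The median log2 difference of the members, 0.09, became 0.11 with TPM, 0.13 with upper-quartile scaling, 0.13 with quantile normalization, 0.14 with median centring and 0.095 to 0.11 with 1 library left out. With a mean of at least 5 FPKM only 30 members were tested, and the median of those was 0.11. Over all tested genes, 744 higher and 1463 lower became 297 and 379 with no filter, 1128 and 802 with median centring, 1434 and 2615 with array weights, and 388 to 631 and 640 to 1199 with 1 library left out. Upper-quartile scaling gave 939 lower and quantile normalization 895. With no filter, genes averaging under 1 FPKM were also tested, and 0.897% of all tested genes were called higher, against 6.13% in the main setting. The other replication genes, 14 higher and 6 lower, gave 5 and 1 with no filter and 5 to 11 and 1 to 4 with 1 library left out. Those lower numbered 3 with TPM, 3 with upper-quartile scaling, 3 with quantile normalization, 2 with median centring, 11 with array weights and 11 with length and GC trends removed. MTA1 kept its call throughout. The causes of these moves were not tested.

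With the replicate number as a block 14 members were called higher, the 9 among them. Over all tested genes 8.17% were then called higher, against 6.13% in the main setting, and 2039 genes lower, against 1463. Deviations of same-numbered libraries correlated at 0.33, 0.02 and 0.22, and 4 of 6 libraries correlated best with their own number, so, with 1 correlation under 0.1, the numbers were not taken as pairing.

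Signs turned for 8 uncalled members near 0. POLD2 reached 1.3e-04 with upper-quartile scaling and 0.011 with median centring. RFC3 reached 0.0050 with upper-quartile scaling, 0.020 with quantile normalization, 0.023 with median centring and 0.026 with trend removal. RPA1 stood at −0.013 with array weights and −0.0081 with trend removal, and TYMS at −0.015 with array weights. CCNE2 reached 0.0084 with median centring, 0.016 with array weights and 0.0040 with trend removal. With 1 library left out, POLD2 ranged over −0.078 to 0.013, POLD3 over −0.017 to 0.050, RPA1 over −0.033 to 0.048, RPA3 over −0.047 to 0.097, TYMS over −0.032 to 0.048 and ORC6 over −0.0053 to 0.13.

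The deposited values give no counts, so the depth behind each value is implied, not given.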
